A study of Mus musculus with 10 samples.

Results

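The transcripts of 10 genes for matrix proteoglycans and elastic fibers, Dcn, Bgn, Lum, Ogn, Aspn, Prelp, Vcan, Hspg2, Fbn1 and Eln, were followed in gastrocnemius muscle of 5 desmin knock-out mice (Des -/-) and 5 wild-type mice (Des wt/wt). The genes were taken by name from the deposited table, which lists 54232 mouse genes, and all 10 were among the 14289 genes that were expressed highly enough to be tested. Both genotypes carry the strain label B6J.129Sv-Destm1Cba/Cscl, and the methods of the study give littermates aged 3 months. In this line Des is inactive in every cell of the animal and not in muscle fibers alone. No treatment was given, and the sex of the mice is not given in the sources used here. The study also states that plantaris muscle was included with the gastrocnemius, whereas the labels name the gastrocnemius alone. The methods describe pooling of RNA from the muscles of a genotype, whereas the table lists every mouse separately, and each mouse was taken as 1 replicate.

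Proteoglycans are proteins that carry glycosaminoglycan chains and fill the space between and around collagen fibrils. Decorin (Dcn), biglycan (Bgn), lumican (Lum), osteoglycin (Ogn), asporin (Aspn) and prolargin (Prelp) belong to the small leucine-rich proteoglycans, whose curved protein cores bind collagen fibrils, although asporin carries no chain. Versican (Vcan) binds hyaluronan, and perlecan (Hspg2) is a heparan sulfate proteoglycan of the basement membrane that surrounds each muscle fiber. Elastic fibers are made of elastin (Eln) on a scaffold of microfibrils that contain fibrillin-1 (Fbn1). In skeletal muscle these proteins are made largely by connective tissue cells, vessel walls and tendon, and only in part by muscle fibers.

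In desmin knock-out muscle, Aspn and Lum rose, and none of the 10 genes fell. Aspn was higher by 1.39 and Lum by 0.99 on the log2 scale, and for both genes every knock-out mouse lay above every wild-type mouse. The other 8 genes did not pass the test over all tested genes, and Prelp, Vcan, Hspg2, Fbn1 and Eln had differences between -0.078 and 0.091. Thus 2 of 10 genes were higher at an adjusted p below 0.05 in limma, against 7.7% of all tested genes, and 2 of 10 separated the genotypes upwards without overlap, compared with 7.45% of all tested genes. Of all tested genes, 5.99% were lower and 13.7% differed in either direction. The median difference of the 10 genes was 0.24, against -0.0029 over all tested genes. All values are rlog values, which are expression values on a log2 scale that DESeq2 scales for library size and draws towards the mean of each gene, so differences on this scale are smaller than those of the counts. Sequencing depth and counting error are unknown from such values. In RNA of whole muscle, more cells of a type and more transcript per cell cannot be told apart.

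Des (ENSMUSG00000026208), the targeted gene, lay between 16.10 and 17.74 in wild-type mice and between 11.76 and 11.89 in knock-out mice on the rlog scale, and no mouse went against its genotype. The 8 muscle fiber markers averaged between 18.74 and 19.79 on the rlog scale in all mice, as fits muscle tissue. Wild-type mouse 3 stood apart from the other 4 wild-type mice. It correlated less with its own genotype (mean 0.982) than these 4 mice did (0.989 to 0.991), and its values, taken off the log scale and summed, came to 1.48 times the median. Results are therefore also given without it where it mattered. Nothing else in the labels marks a batch, and p-values measure the spread between these mice only.

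**Figure D1:**
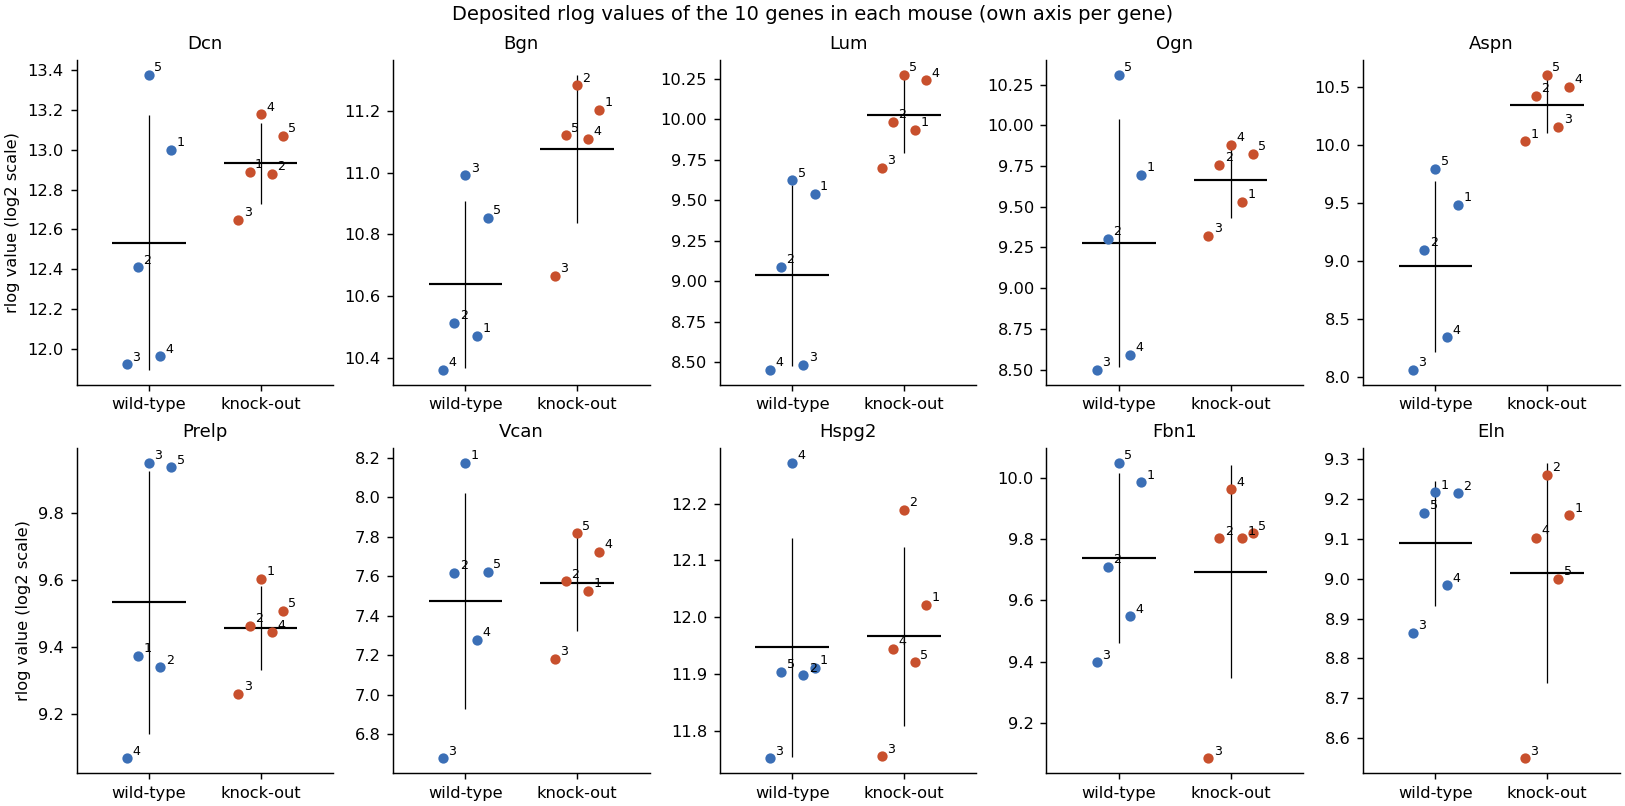
Deposited rlog values (vertical axis, log2 scale, own range for each gene) of the 10 genes in 5 wild-type mice (blue) and 5 desmin knock-out mice (red), numbered by mouse, with the mean (horizontal line) and SD (vertical line). Only for Lum and Aspn do all knock-out points lie above all wild-type points, and wild-type points of Dcn, Ogn, Aspn and Lum are spread more widely than knock-out points.

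Asporin is a small leucine-rich protein that binds collagen and members of the TGF-β family. Its gene Aspn (ENSMUSG00000021388) lies on chromosome 13 (GRCm38, 49544443 to 49567565, forward strand). The rlog values of Aspn were 9.48, 9.10, 8.06, 8.35 and 9.80 in wild-type mice 1 to 5. In desmin knock-out mice 1 to 5 they were 10.04, 10.43, 10.16, 10.50 and 10.61. The lowest knock-out value thus exceeded the highest wild-type value, that of mouse 5. The mean of the knock-out mice was 10.35 ± 0.24 (SD, n = 5), and that of the wild-type mice was 8.96 ± 0.74 (SD, n = 5). The difference of 1.39 (standard error, SE, 0.28, 95% interval 0.79 to 1.99, limma adjusted p = 0.00451) is 2.62-fold on the rlog scale. The exact two-sided permutation test over mice reached p = 0.00794, and 5 against 5 mice allow none smaller. Over 18 alternatives the log2 difference of Aspn was at least 1.17 with an adjusted p of at most 0.0234 (limma). The smallest difference was that without wild-type mouse 3 (1.17, limma adjusted p = 0.00337).

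Lumican can carry keratan sulfate chains and takes part in setting the width of collagen fibrils. Lum (ENSMUSG00000036446) lies on chromosome 10 (GRCm38, 97565128 to 97572703, forward strand). Wild-type mice 1 to 5 had Lum values of 9.54, 9.09, 8.48, 8.45 and 9.62 on the rlog scale. Desmin knock-out mice 1 to 5 had 9.93, 9.98, 9.70, 10.24 and 10.27. The genotypes did not overlap, but the highest wild-type value, 9.62, lay close to the lowest knock-out value, 9.70. The log2 difference of Lum was 0.99 (SE 0.22, 95% interval 0.51 to 1.47, limma adjusted p = 0.0091), which is 1.98-fold on the rlog scale, and the exact permutation test again gave p = 0.00794. Over 18 alternatives the log2 difference of Lum was 0.84 to 1.13 with an adjusted p of at most 0.0381 (limma). Without wild-type mouse 3 it was 0.85 (limma adjusted p = 0.0115).

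Biglycan and decorin are close relatives that carry chondroitin or dermatan sulfate chains. Bgn (ENSMUSG00000031375, chromosome X of GRCm38, 73483602 to 73495933, forward strand) had rlog values of 10.47, 10.51, 10.99, 10.36 and 10.85 in wild-type mice 1 to 5. In desmin knock-out mice 1 to 5 they were 11.20, 11.28, 10.67, 11.11 and 11.12. The values of 4 knock-out mice lay above the wild-type range, and knock-out mouse 3 lay within the wild-type range. The log2 difference of 0.44 (SE 0.14, 95% interval 0.13 to 0.75) did not pass over all tested genes (limma adjusted p = 0.0604), while the exact permutation test of this gene gave p = 0.0397 before any adjustment. The call for Bgn depended on single mice. Without wild-type mouse 3 the log2 difference was 0.53 (limma adjusted p = 0.0114), and without knock-out mouse 3 it was 0.54 (limma adjusted p = 0.0214). It also passed with quantile normalization and with sample weights, and over 18 alternatives the adjusted p of Bgn ranged from 3.1e-04 to 0.372.

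Dcn (ENSMUSG00000019929, chromosome 10 of GRCm38, 97479609 to 97518143, forward strand) was the most abundant of the 10 genes, above 95.3% of tested genes by its mean. Its rlog values were 13.00, 12.41, 11.92, 11.96 and 13.38 in wild-type mice 1 to 5. They were 12.89, 12.88, 12.65, 13.18 and 13.07 in desmin knock-out mice 1 to 5. All knock-out values lay inside the wild-type range, and the log2 difference of 0.40 (SE 0.24, 95% interval -0.13 to 0.93, limma adjusted p = 0.314) was smaller than the wild-type SD of 0.64. The size of this difference depended on single wild-type mice. It was 0.25 without mouse 3 and 0.26 without mouse 4, which had the least Dcn, and 0.61 without mouse 5, which had the most. None of these passed (limma adjusted p = 0.518, 0.531 and 0.0653).

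Osteoglycin, also called mimecan, is secreted by connective tissue and muscle cells. Ogn (ENSMUSG00000021390, chromosome 13 of GRCm38, 49608046 to 49624501, forward strand) had rlog values of 9.70, 9.30, 8.50, 8.59 and 10.31 in wild-type mice 1 to 5. Desmin knock-out mice 1 to 5 had 9.53, 9.76, 9.32, 9.88 and 9.83. As for Dcn, all knock-out values fell inside the wild-type range. The log2 difference was 0.38 (SE 0.29, 95% interval -0.23 to 1.00, limma adjusted p = 0.413). Without wild-type mouse 3 it was 0.19, without mouse 4 it was 0.21 and without mouse 5 it was 0.64.

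**Figure D2:**
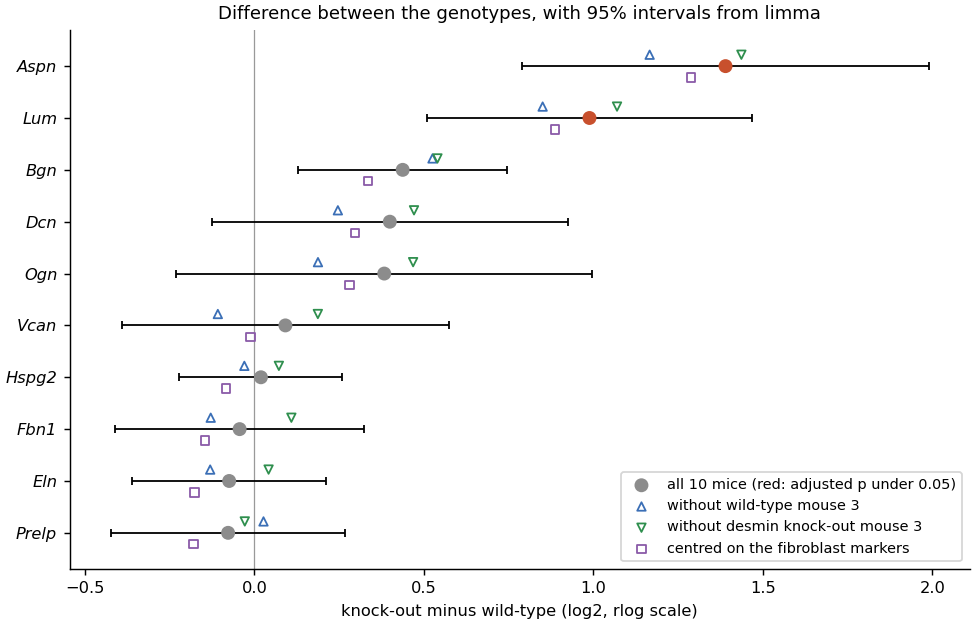
Log2 difference between desmin knock-out and wild-type muscle (horizontal axis, rlog scale) for each of the 10 genes, with 95% intervals from limma; open symbols give the difference without wild-type mouse 3, without desmin knock-out mouse 3, and after centring each mouse on 10 fibroblast markers. The differences of Aspn (1.39) and Lum (0.99) lie above 0 in each version, while Prelp, Eln, Fbn1, Hspg2 and Vcan lie around 0.

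Prolargin anchors basement membranes to the connective tissue beneath them. Prelp (ENSMUSG00000041577, chromosome 1 of GRCm38, 133910304 to 133921414, reverse strand) ranged from 9.26 to 9.60 in desmin knock-out and from 9.07 to 9.95 in wild-type mice on the rlog scale. Its log2 difference was -0.078 (SE 0.16, 95% interval -0.42 to 0.27, limma adjusted p = 0.789). Wild-type mouse 3, which was lowest or next to lowest for 8 of the 10 genes, was the highest of the wild-type mice for Prelp and Bgn.

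Versican and perlecan are large proteoglycans. Vcan (ENSMUSG00000021614, chromosome 13 of GRCm38, 89655312 to 89742509, reverse strand) had the lowest level per length of the 10 genes. Its rlog values ranged from 7.18 to 7.82 in desmin knock-out and from 6.68 to 8.18 in wild-type mice, and the log2 difference was 0.091 (SE 0.22, 95% interval -0.39 to 0.57, limma adjusted p = 0.825). Hspg2 (ENSMUSG00000028763, chromosome 4 of GRCm38, 137468769 to 137570630, forward strand) had one of the smaller spreads, with rlog values from 11.75 to 12.19 in desmin knock-out and from 11.75 to 12.27 in wild-type mice. The log2 difference of Hspg2 was 0.019 (SE 0.11, 95% interval -0.22 to 0.26, limma adjusted p = 0.93).

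The elastic fiber genes did not pass either. Fbn1 (ENSMUSG00000027204, chromosome 2 of GRCm38, 125300594 to 125507993, reverse strand) had rlog values from 9.08 to 9.96 in desmin knock-out and from 9.40 to 10.05 in wild-type mice, with a log2 difference of -0.044 (SE 0.17, 95% interval -0.41 to 0.32, limma adjusted p = 0.893). Eln (ENSMUSG00000029675, chromosome 5 of GRCm38, 134702593 to 134747323, reverse strand) ranged from 8.55 to 9.26 in desmin knock-out and from 8.86 to 9.22 in wild-type mice, with a log2 difference of -0.075 (SE 0.13, 95% interval -0.36 to 0.21, limma adjusted p = 0.753). For both genes the lowest of all 10 mice was knock-out mouse 3. Without this mouse the log2 difference was 0.11 for Fbn1 and 0.042 for Eln. The sign for Fbn1 also turned without wild-type mouse 1 (0.018) or wild-type mouse 5 (0.034).

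Per length, that is after subtraction of the log2 of the exon length in kb from the rlog value, Dcn had the highest level in wild-type muscle (9.99) and Vcan the lowest (3.62). Hspg2 (8.11), Bgn (8.03), Ogn (7.92), Lum (7.75), Aspn (7.72) and Prelp (7.68) followed Dcn and did not differ from their neighbours in this order beyond their SDs between mice, as was the case for Fbn1 (6.14) and Eln (6.07). In desmin knock-out muscle the order below Dcn (10.39) was Aspn (9.11), Lum (8.73), Bgn (8.47), Ogn (8.30), Hspg2 (8.13) and Prelp (7.60). Aspn was thus sixth in wild-type and the second in desmin knock-out muscle. The length used is that of all annotated exons of a gene, so isoforms that lack exons are not considered.

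Within each genotype the same mice were lowest for most of these genes, but no full order was shared. Among wild-type mice, mouse 3 was lowest for 7 of the 10 genes and mouse 4 for the remaining 3, whereas mouse 5 or mouse 1 was highest for 7. However, wild-type mouse 3 was highest for Bgn and Prelp, and wild-type mouse 4 was highest for Hspg2. Among desmin knock-out mice, mouse 3 was lowest for 9 of the 10 genes, Aspn being the exception. The highest knock-out mouse varied, being mouse 1 for 1 gene and mice 2, 4 and 5 for 3 genes each. The spread between wild-type mice was larger than that between knock-out mice for 8 of 10 genes and about 3 times as large for Ogn (3.28), Dcn (3.16), Prelp (3.12) and Aspn (3.07, all given as the ratio of the SDs). Whether the spread differed between the genotypes was not tested. After each gene was centred on its own mean over the 10 mice, Dcn and Ogn were the most similar pair of the 10 genes, with a root mean square difference of 0.12 on the log2 scale, followed by Fbn1 and Eln with 0.14. Lum and Aspn differed by 0.26, and the least similar pair was Aspn and Prelp with 0.91. All these values share the same 10 libraries.

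By the same measure, the 2 most similar tested genes outside the 10 genes included Col8a1 (0.25) for Aspn and were Lrrc8b (0.15) and Hdac9 (0.17) for Lum, and Olfml2a and Anxa5 (0.11 each) for Bgn. For Dcn they were Itih5 (0.13) and Gpm6b (0.14), and for Ogn they were Gpm6b (0.16) and its chromosomal neighbour Omd (0.19). For the genes with small differences they were Tnfrsf1a (0.089) and Nptxr (0.10) for Prelp, Cep170 (0.10) and Cav2 (0.11) for Vcan, Rhbdf1 (0.058) and Tmem198b (0.062) for Hspg2, Ackr3 (0.10) and Lamb1 (0.11) for Fbn1, and Unc5b (0.094) and Ripk1 (0.098) for Eln. These genes were picked as the nearest outside the 10 genes, so close values had to be found. Dcn and Ogn were closer to each other than to any of them.

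The question whether related genes responded alike was addressed by the difference between 2 genes within each mouse, in which the scale of a library cancels. This was done for 5 pairs, which were chosen with earlier results of these data known. For Lum and Dcn, neighbours on chromosome 10, the rlog value of Lum minus that of Dcn was -3.46, -3.32, -3.44, -3.51 and -3.76 in wild-type mice 1 to 5. It was -2.96, -2.90, -2.95, -2.94 and -2.80 in desmin knock-out mice 1 to 5. All knock-out mice lay above all wild-type mice, although Dcn alone overlapped widely between the genotypes. The difference between the genotypes was 0.59 (SE 0.08, exact 95% interval 0.44 to 0.78; exact permutation test, p = 0.00794, adjusted p = 0.0198 over the 5 pairs), so Lum rose relative to Dcn.

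For Ogn and Aspn, neighbours on chromosome 13, the rlog value of Ogn minus that of Aspn was 0.21, 0.21, 0.44, 0.25 and 0.51 in wild-type mice 1 to 5. It was -0.51, -0.67, -0.84, -0.62 and -0.78 in desmin knock-out mice 1 to 5. The sign changed between the genotypes in all mice. The difference was -1.01 (SE 0.09, exact 95% interval -1.22 to -0.80; exact permutation test, p = 0.00794, adjusted p = 0.0198 over the 5 pairs), which means that Ogn relative to Aspn was 0.498 times its wild-type level. When single mice were left out, the difference stayed between -1.05 and -0.96 for Ogn and Aspn and between 0.52 and 0.63 for Lum and Dcn. The SD within wild-type mice was 0.14 for this difference, compared with 0.76 for Ogn and 0.74 for Aspn alone.

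The other pairs did not separate. Biglycan relative to decorin changed by 0.038 (exact 95% interval -0.74 to 0.75; exact permutation test, p = 0.944, adjusted p = 0.944). Elastin relative to fibrillin-1 changed by -0.031 (exact 95% interval -0.29 to 0.23; exact permutation test, p = 0.698, adjusted p = 0.944). Versican relative to perlecan changed by 0.072 (exact 95% interval -0.55 to 0.73; exact permutation test, p = 0.794, adjusted p = 0.944). The intervals for Bgn with Dcn and for Vcan with Hspg2 are wide, since the wild-type mice differed with SDs of 0.67 and 0.56.

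**Figure D3:**
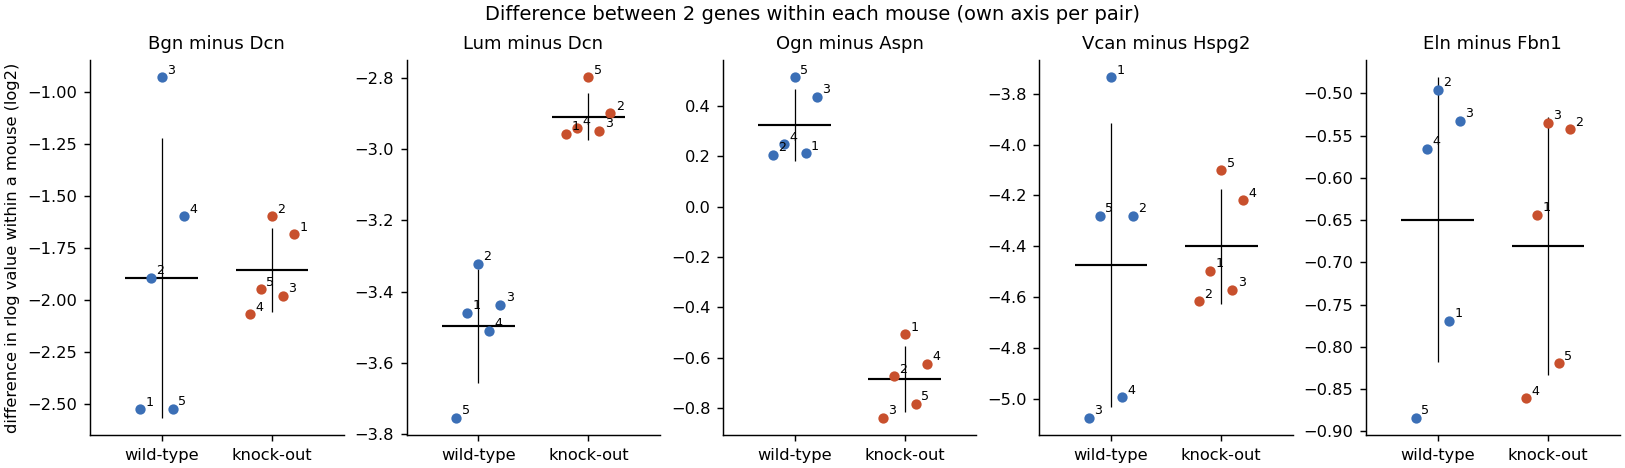
Difference between the rlog values of 2 genes within each mouse (vertical axis, log2, own range for each pair) in 5 wild-type (blue) and 5 desmin knock-out mice (red), numbered by mouse, with mean and SD. Lum minus Dcn lies between -3.76 and -3.32 in wild-type and between -2.96 and -2.80 in knock-out mice, and Ogn minus Aspn lies between 0.21 and 0.51 in wild-type and between -0.84 and -0.51 in knock-out mice.

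Most of the small leucine-rich proteoglycan genes lie in clusters. On chromosome 13, Ecm2, Aspn, Omd and Ogn follow each other on the forward strand with gaps of 11.7, 14.9 and 15.2 kb. Only Aspn passed the test among them. Ecm2 had a log2 difference of 0.39 (adjusted p = 0.132), Omd 0.24 (adjusted p = 0.495) and Ogn 0.38 (adjusted p = 0.413, all limma). On chromosome 10, Dcn, Lum and Kera follow each other with gaps of 47.0 and 34.2 kb, and only Lum passed. Kera, which encodes keratocan, had a log2 difference of -0.034 (SE 0.43, limma adjusted p = 0.968), and the next gene, Epyc, lay under the expression limit. Prelp lies beside Optc on chromosome 1, and Optc also lay under the limit. Cenpp spans Aspn and Ogn on the opposite strand. Its mean rlog value was 5.39 in wild-type and 5.16 in desmin knock-out muscle (log2 difference -0.23, limma adjusted p = 0.291), well under the values of Aspn. The library kit keeps the strand, but whether reads were counted by strand is not given in the sources used here.

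**Figure D4:**
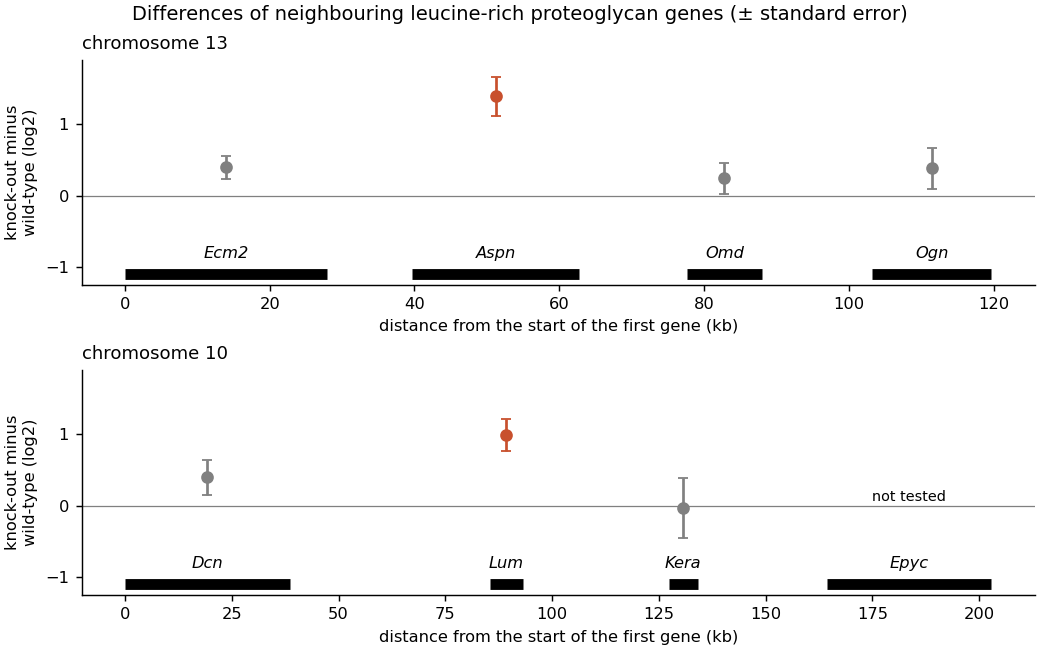
Log2 difference between desmin knock-out and wild-type muscle (vertical axis, points with SE, red where the adjusted p is under 0.05) for the genes of the clusters on chromosome 13 and chromosome 10, placed by their distance in kb from the start of the first gene (black bars mark the genes). Aspn (1.39) and Lum (0.99) stand above their neighbours, whose differences lie between -0.034 and 0.40.

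The promoters of Aspn and Ogn are shown because the within-mouse difference of these neighbours separated the genotypes. Each sequence runs 5′ to 3′ on the forward strand of GRCm38.p6, from 250 bases before to 50 bases after the start given by RefSeq, and capitals mark matches to TATAAA on either strand.
Aspn, chr13:49544193-49544492: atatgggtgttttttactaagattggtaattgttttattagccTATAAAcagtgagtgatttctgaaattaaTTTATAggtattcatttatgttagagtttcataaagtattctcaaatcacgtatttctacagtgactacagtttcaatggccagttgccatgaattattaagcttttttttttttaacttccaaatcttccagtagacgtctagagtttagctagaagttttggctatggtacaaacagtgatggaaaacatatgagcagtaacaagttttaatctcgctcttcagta
Ogn, chr13:49607765-49608064: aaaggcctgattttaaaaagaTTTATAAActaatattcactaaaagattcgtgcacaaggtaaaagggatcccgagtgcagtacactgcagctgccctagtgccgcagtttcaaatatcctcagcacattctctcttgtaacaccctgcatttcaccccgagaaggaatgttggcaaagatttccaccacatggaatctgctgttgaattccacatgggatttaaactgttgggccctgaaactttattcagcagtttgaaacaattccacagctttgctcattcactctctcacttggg
In Aspn the 2 matches begin 207 and 178 bases before the start. In Ogn they begin 229 and 227 bases before it and overlap each other on opposite strands. The reference used holds promoters for 7 of the 10 genes (Prelp, Fbn1, Hspg2, Aspn, Ogn, Vcan and Bgn). Searched on both strands, TATAAA was found in 2 of these 7, Aspn and Ogn, and in 13.6% of all 32851 promoters of the same length. GGGCGG was found in 4 of 7 (Hspg2, Bgn, Vcan and Fbn1) and in 35.7% of all promoters. CCAAT was found in 3 of 7 (Aspn, Prelp and Vcan) and in 37.4% of all promoters. TGANTCA (AP-1 site) was found in none of the 7 windows and in 7.81% of all promoters. The G and C content was 31.0% for Aspn and 42.3% for Ogn, compared with 55.3% to 70.3% for the other 5 windows and a median of 52.7% over all promoters. Such matches describe the letters of these windows and are no evidence of binding.

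Lists of genes that act together with these 10 are described by their counts and medians alone, beside the 13.7% of all tested genes that passed in either direction. Differences between lists were not tested. Of 12 further small leucine-rich proteoglycan genes, 8 were tested and none passed (limma), with a median log2 difference of 0.030 and a range from -0.29 (Chadl) to 0.40 (Fmod). Of 13 genes for hyaluronan and its binding proteins, 6 were tested and only Cd44, the hyaluronan receptor, passed, with a median of 0.0045. Cd44 was higher by 1.11 (SE 0.16, limma adjusted p = 4.8e-04), with rlog values from 8.34 to 8.67 in desmin knock-out and from 7.03 to 7.90 in wild-type mice. Of 20 heparan sulfate and other proteoglycan genes, 15 were tested, 4 were higher and 1 was lower (33.3% in either direction), with a median of 0.29. The testican genes Spock2 (log2 difference 1.56, SE 0.11, limma adjusted p = 9.6e-07) and Spock3 (0.60, SE 0.13) and Cspg4 (1.02, SE 0.12), which encodes the NG2 proteoglycan, had the smallest adjusted p. They separated the genotypes completely, which is likely for genes named by that rule. Spock3 lay near the expression limit of log2(10), with a mean rlog value of 3.316 in wild-type and 3.91 in knock-out mice. It reached that limit only through the knock-out mice, so its place among the 4 higher genes and its separation are descriptions only.

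For elastic fibers, 19 of 20 genes of microfibril and elastic fiber partners were tested, of which 5 were higher and 1 was lower (31.6% in either direction, against 13.7% of all tested genes), with a median of 0.095. Ltbp2, which encodes a microfibril protein of the family named latent TGF-β binding proteins, was higher by 1.31 (SE 0.16, limma adjusted p = 1.12e-04). Ltbp1, a further member of that family, was higher by 0.56 (SE 0.10, limma adjusted p = 0.00142). Emilin2, an elastin-associated glycoprotein, was lower, with a log2 difference of -0.67 (SE 0.13, limma adjusted p = 0.00364). All 3 genes separated the genotypes completely, but they were named for their small adjusted p, so this is a description only. Fbn1 and Eln themselves did not pass.

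Of 37 enzymes that build and modify glycosaminoglycan chains, 32 were tested, 2 were higher and 3 lower, with a median of 0.030. This share of 15.6% was close to the 13.7% of all tested genes. Sulf2, which removes sulfate from heparan sulfate outside the cell, was higher by 0.88 (SE 0.13, limma adjusted p = 5.4e-04), and Chsy1, a chondroitin synthase, was higher by 0.49 (SE 0.12, limma adjusted p = 0.0161). Chst11, a chondroitin sulfotransferase, was lower, with a log2 difference of -0.88 (SE 0.15, limma adjusted p = 0.00151). Of 20 matrix-cleaving enzymes, 18 were tested, 3 were higher and 2 lower (27.8%), with a median of 0.075. The serine protease gene Htra1 (log2 difference -1.15, SE 0.12, limma adjusted p = 3.5e-05) and the gelatinase gene Mmp9 (-0.63, SE 0.15) were lower. Mmp9 lay near the expression limit, with mean rlog values of 4.39 in wild-type and 3.76 in knock-out mice, and its genotypes overlapped. The higher genes were the cathepsin K gene Ctsk (0.94, SE 0.23, limma adjusted p = 0.0153), Mmp2 (0.52, limma adjusted p = 0.0248) and Mmp3 (0.63, limma adjusted p = 0.0333). Ctsk lost its call without a limit on expression (limma adjusted p = 0.053). Leaving out 1 mouse moved some of these counts of changed genes by more than 1.5 times. Only 3 heparan sulfate and other proteoglycan genes passed without knock-out mouse 3, 3 chain enzymes passed without knock-out mouse 2 or 3, and 3 cleaving enzymes passed without knock-out mouse 1, 2 or 4 or wild-type mouse 2 or 4. Of the further leucine-rich genes, 1 passed without wild-type mouse 5.

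**Figure D5:**
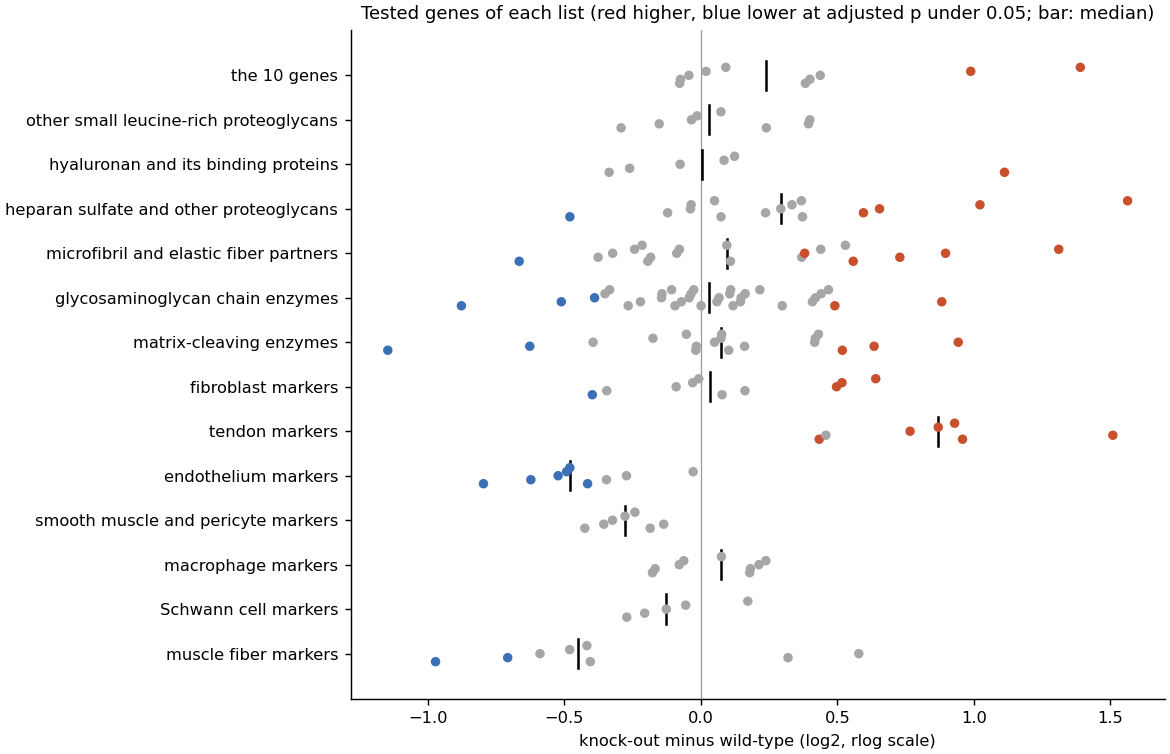
Log2 differences between desmin knock-out and wild-type muscle (horizontal axis, rlog scale) of the tested genes of each list, 1 point per gene, red where higher and blue where lower at an adjusted p under 0.05 (limma), with a bar at the median. The tendon markers lie above 0 with a median of 0.87 and the endothelium markers below 0 with a median of -0.48, while the 10 genes have a median of 0.24.

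The markers of cell types that muscle can hold were read beside these results. Of the 7 tendon markers, 6 rose in the knock-out mice (median log2 difference 0.87), among them the tenomodulin gene Tnmd (1.51, SE 0.24, limma adjusted p = 8.2e-04) and Thbs4 (0.96, SE 0.16, limma adjusted p = 0.00143). The tendon markers were also summed off the log scale, relative to the median of all mice. This summed level was 1.05 to 1.49 in desmin knock-out and 0.548 to 0.948 in wild-type mice. It thus separated the genotypes, as Aspn and Lum did, and the order of mice within a genotype matched only in part. Mouse 3 had the highest sum but the lowest Aspn in wild-type, as did mouse 1 in knock-out. Wild-type mouse 4 and knock-out mouse 3 had the lowest sums and were next to lowest for Aspn. For Lum these mice were the lowest of their genotype, and wild-type mouse 3 and knock-out mouse 1 were next to lowest. Thbs4 had the highest rlog values of these markers (mean 11.89 in wild-type, 12.85 in knock-out) and weighs most in the sum. The part of the tendon markers in the rise of Aspn and Lum was not tested. Of the 10 fibroblast markers, the collagen genes Col1a1, Col1a2 and Col3a1 were higher and Ly6a was lower, with a median of 0.035. Col1a2 was higher by 0.64 (SE 0.14) and Ly6a was lower with a log2 difference of -0.40 (SE 0.09), whereas Pdgfra, which marks the fibro-adipogenic cells of muscle, had a log2 difference of 0.078 (limma adjusted p = 0.821). The summed level of the fibroblast markers was 0.750 to 1.15 in desmin knock-out and 0.767 to 1.07 in wild-type mice. When each mouse was centred on the mean of these 10 markers, an alternative chosen after the values had been seen, the log2 difference was 1.29 for Aspn (adjusted p = 2.2e-06) and 0.89 for Lum (adjusted p = 9.4e-04, both limma). By this measure 2 of the 10 genes were higher, against 3.49% of all tested genes.

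Endothelium markers were lower for 6 of 9 genes, with a median of -0.48, led by Eng (log2 difference -0.80, SE 0.13) and Vwf (-0.62, SE 0.13), and their summed level was 0.755 to 0.986 in desmin knock-out and 1.01 to 1.33 in wild-type mice. None of the 7 smooth muscle and pericyte markers passed (median -0.28, summed level 0.825 to 1.00 against 0.953 to 1.53), nor did any of the 9 macrophage markers (median 0.075, 0.800 to 1.14 against 0.840 to 1.05) or of the 5 Schwann cell markers (median -0.13, 0.878 to 1.14 against 0.798 to 1.21). Of the 8 muscle fiber markers, Actn3 (log2 difference -0.97) and Myh4 (-0.71) were lower, with a median of -0.45 over the list. Myh1 (0.58, limma adjusted p = 0.132) and Mb (0.32, limma adjusted p = 0.15) went the other way and did not pass. The summed level of the 8 markers was 0.861 to 0.986 against 1.01 to 1.95. The highest value was that of wild-type mouse 3. Myh4 kept its call in only 6 of 17 alternatives, with differences from -0.79 to -0.36 and a limma adjusted p of up to 0.161, and Actn3 kept its call in 14 of 17, with a limma adjusted p of up to 0.0705. All markers of these lists were detected above the expression limit. The count of fibroblast markers fell from 4 to 2 without knock-out mouse 1, 2, 4 or 5 or wild-type mouse 4. The count of muscle fiber markers was 0 without knock-out mouse 4 or 5, 1 without knock-out mouse 1, 2 or 3 or wild-type mouse 1, 2 or 4, and 4 without wild-type mouse 3. Of the smooth muscle and pericyte markers, 1 passed without wild-type mouse 1.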

How the data were processed

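RNA of gastrocnemius muscle (with plantaris, by the study's text) of 5 mice per genotype was sequenced with a stranded mRNA kit. Per the submitters' processing notes, the tools were cutadapt 2.5, STAR 2.5.4a, featureCounts of Subread 1.6.1 and DESeq2 on GRCm38. The deposited values are DESeq2 rlog values on a log2 scale, and the settings of this transformation are not given in the sources used here. All 10 sample columns were used. Symbols for 54079 of 54232 genes, positions and exon lengths were taken from GENCODE M21 (GRCm38), and promoter sequences from RefSeq (GRCm38.p6).

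The test was applied to 14289 genes whose average rlog value reached log2(10). It used limma 3.58.1 (R 4.3.3) with moderated two-sided tests, a trend in the prior variance and Benjamini-Hochberg adjustment over these genes. Exact permutation tests were run over single genes and over 5 pairs of genes. Their intervals hold the shifts with an exact p above 0.05. The fit was also checked on drawn values with planted differences.

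The 10 genes, the lists and the pairs were chosen with earlier results of these data known. The genes named are the 10 genes, Des, up to 3 genes per list and up to 2 per marker list with the smallest adjusted p under 0.05, and the 2 most similar genes for each of the 10 genes, of which 1 is not reported here. Genes named beyond this rule were picked after their values were seen. These are the neighbours in the clusters, Cenpp, the ends of a list's range, Mmp2, Mmp3, and markers such as Pdgfra. The alternatives were sample weights, quantile normalization, a lower and a higher expression limit (none and log2(50)), centring on the median, 1 prior variance for all genes, the replicate number as a block, each mouse left out, an adjusted p under 0.01 and, added later, centring on the fibroblast markers.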

Additional observations from a re-analysis of the deposited data

Results flagged for a closer look

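In 44 groups of 5 mice (each genotype for the 10 genes, the 5 pairs and the summed levels of 7 marker lists), 4 had a mouse far from the other 4 by Dixon's test with a critical value of 0.71, where chance gives about 2.2. In each of the 4 it was desmin knock-out mouse 3, and in each its value was below the rest. Its rlog value of Bgn was 10.67, compared with 11.11 to 11.28 in the other knock-out mice. Its rlog value of Fbn1 was 9.08, compared with 9.80 to 9.96. Its summed level of the fibroblast markers was 0.750 of the median of all mice, compared with 1.08 to 1.15, and that of the smooth muscle and pericyte markers was 0.825, compared with 0.957 to 1.00. The part of these marker levels in the low values of Bgn and Fbn1 was not tested.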

How the results depend on the processing

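Aspn and Lum kept their direction and an adjusted p under 0.05 (limma) in all 18 alternatives, and 2 or 3 of the 10 genes passed in each, the third being Bgn. Over all genes, sample weights gave 4220 and a threshold of 0.01 gave 994 changed genes instead of 1956. With sample weights, the counts were 11 for chain enzymes, 10 for microfibril partners, 4 for muscle fiber markers, 3 for smooth muscle and pericyte markers, 2 for hyaluronan and its binding proteins and 1 for further leucine-rich genes. Without an expression limit they were 2 for fibroblast markers, 2 for cleaving enzymes and 0 for muscle fiber markers. Median centring and a single prior variance gave 2 fibroblast markers, a limit of log2(50) gave 3 cleaving enzymes, and the replicate block gave 1 muscle fiber marker. With 1 mouse left out, counts ranged from 2 to 4 for fibroblast markers, 3 to 6 for chain enzymes, 3 to 6 for heparan sulfate and other proteoglycans, 3 to 6 for cleaving enzymes, 0 to 4 for muscle fiber markers, and 0 to 1 for further leucine-rich genes and for smooth muscle and pericyte markers. The cause of these shifts was not tested.

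Small differences changed sign. Median centring gave -0.023 and centring on the fibroblast markers -0.083 for Hspg2. Vcan had -0.011 with that centring and -0.10 with sample weights, which gave 0.025 for Prelp. Quantile normalization gave -0.051 for Vcan relative to Hspg2. With 1 mouse left out, log2 differences ranged from -0.14 to 0.042 for Eln, -0.13 to 0.11 for Fbn1, -0.037 to 0.10 for Hspg2, -0.19 to 0.027 for Prelp and -0.11 to 0.27 for Vcan. For the pairs they ranged from -0.12 to 0.28 for Bgn with Dcn, -0.089 to 0.014 for Eln with Fbn1 and -0.078 to 0.26 for Vcan with Hspg2.

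Mice with the same replicate number in both genotypes share only a number (correlations of their deviations between -0.22 and 0.067), so the replicate block is no pairing by design. With the replicate block, Aspn (1.39) and Lum (0.99) still passed. For the pairs, an exact permutation test by sign flips over the 5 number-matched mice cannot go below p = 0.0625, so Lum with Dcn (0.59) and Ogn with Aspn (-1.01) had an adjusted p of 0.156. Since depth is unknown, the limit of detection of small differences is set by the spread between mice.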
